A study of Mus musculus with 188 samples.

Results

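Collagens are secreted or membrane-bound proteins of the extracellular matrix in which chains wind into a triple helix. The helix is built on a repeated Gly-X-Y triplet, because only glycine is small enough to sit at its centre. The family is grouped by what the helices assemble into: banded fibrils, the sheet-like network of basement membranes, beaded filaments, hexagonal networks, collagens that decorate fibrils (FACIT), transmembrane collagens and multiplexins. Brain parenchyma holds little fibrillar collagen. Most collagen of the brain lies in the meninges, in vessel walls and in the basement membranes that wrap vessels, and some chains are made by glia and neurons.

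The collagen genes were taken as every listed protein-coding mouse gene whose symbol has the form Col, number, a, number. The rule found 44 genes among 25655 listed in the batch 1 files and 25528 listed in the files of batches 2 and 3. They comprise 11 fibrillar, 6 basement membrane, 6 beaded filament, 3 hexagonal network, 9 FACIT, 4 transmembrane and 2 multiplexin genes, and 3 placed with anchoring and other collagens. The filter on low counts kept 42 of the 44 in batch 1 and 43 of the 44 in batches 2 and 3. Col19a1 was tested in neither set and Col17a1 only in the later one.

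The samples were organotypic coronal slice cultures of brain from young adult wild-type C57BL/6J mice of both sexes, exposed from culture day 7 and sequenced in bulk. All cultures carried the same genotype, and no transgene or deletion was used. In batch 1, 60 cultures were untreated or received heme-albumin at 12.5, 50, 200 or 400 µM or heme-hemopexin (hemeHpx) at 200 µM, each for 24 h with 10 libraries a group. Albumin carries heme loosely, whereas hemopexin is the plasma protein that binds it most tightly. All the added proteins were of human origin. In batches 2 and 3, the labelled cultures were untreated or received cell-free hemoglobin (Hb, 200 or 400 µM), its complex with haptoglobin (HbHp, 200 or 400 µM) or haptoglobin alone (Hp, 400 µM), for 24 or 48 h, with 4 to 12 libraries a group. The library names of batches 2 and 3 give 2 culture rounds, with 53 libraries in round 1 and 54 in round 2. All HbHp libraries belong to round 2 and batch 3, whereas only 3 of 10 control libraries at 24 h and 2 of 9 at 48 h belong to round 2. All Hp libraries, of both rounds, also belong to batch 3, which holds only 2 controls at 24 h and 2 at 48 h. The labels of 21 further libraries contradict themselves and were used in no comparison. The sample titles of the hemeHpx group name haptoglobin, while its treatment tags and library names give Hpx, which was followed here.

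Total counts ran from 11038484 to 44199060 in batch 1, from 32626873 to 54174784 in batch 2 and from 15587938 to 38839614 in batch 3. No pair of libraries within a group differed by as little as sampling noise (lowest chi-square per gene 3.48, where sampling noise alone gives about 1). Nothing says which libraries came from separate animals, so p-values measure only the spread between these libraries. In bulk RNA, fewer cells of a type and less RNA per cell cannot be told apart. HbHp 200 µM 48 h replicate 1 stood apart from its group, with the lowest level of 17 collagens. The collagen calls of that group against control are given with and without it, and other values include it. Markers of neurons, astrocytes, oligodendrocytes, microglia, vessels and meningeal fibroblasts were all detected. Of 14 fibroblast markers, only Slc22a6 had a median under 0.1 CPM in every group. The choroid plexus marker sum ranged from 17 to 3521 CPM among the batch 1 controls, so the slices held choroid plexus in unequal amounts.

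The coding sequence shows what the family shares and the measured genes differ in. For 4 genes that the results turn on, 81 bases from within a Gly-X-Y run are shown, 5′ to 3′, with the glycine codon at the head of each triplet in capitals (GENCODE M21 transcripts, GRCm38, numbered from the first base of the start codon). Col1a1 stands for the banded fibrils, Col4a1 for the basement membrane, Col11a2 for the chains that differed most clearly between heme carriers, and Col25a1 for the transmembrane collagens.
Col1a1, bases 502 to 582: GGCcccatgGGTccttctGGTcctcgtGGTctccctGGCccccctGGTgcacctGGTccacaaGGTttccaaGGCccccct
Col4a1, bases 127 to 207: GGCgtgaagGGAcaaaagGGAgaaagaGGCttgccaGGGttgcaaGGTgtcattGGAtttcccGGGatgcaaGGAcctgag
Col11a2, bases 1459 to 1539: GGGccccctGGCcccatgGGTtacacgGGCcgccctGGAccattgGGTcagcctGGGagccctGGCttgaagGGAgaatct
Col25a1, bases 1585 to 1665: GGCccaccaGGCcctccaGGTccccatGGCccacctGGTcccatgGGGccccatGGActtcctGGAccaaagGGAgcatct
The longest unbroken Gly-X-Y run held 338 triplets in Col1a1 and 338 in Col11a2, the uninterrupted helix of a fibril-forming chain. In Col4a1 the longest run held 40 triplets and the helix was divided into 22 runs of at least 5 triplets, the interruptions that make a network collagen flexible. In the FACIT gene Col12a1 only 8.19% of codons lay in such runs, against 86.2% in Col9a3. The GGN glycine codons and the proline-rich positions between them make collagen transcripts rich in G and C. The median transcript GC content was 55.1% over the 44 members and 49.7% over all genes tested in batch 1, a value used again in the hemeHpx comparison.

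In untreated slices Col4a1 had the highest median level. Levels were compared between genes as CPM, read counts scaled to a common library size, per kilobase of exon (CPM per kb), and within a gene as CPM. The exon length of a gene joined all its annotated exons, so the order of genes depends on that choice. At 24 h in batch 1, 16 of 44 genes had a median of at least 100 CPM, 12 lay from 10 to 100, 8 from 1 to 10 and 8 under 1. In the controls of batches 2 and 3 the counts were 13, 14, 9 and 8.

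**Figure D1:**
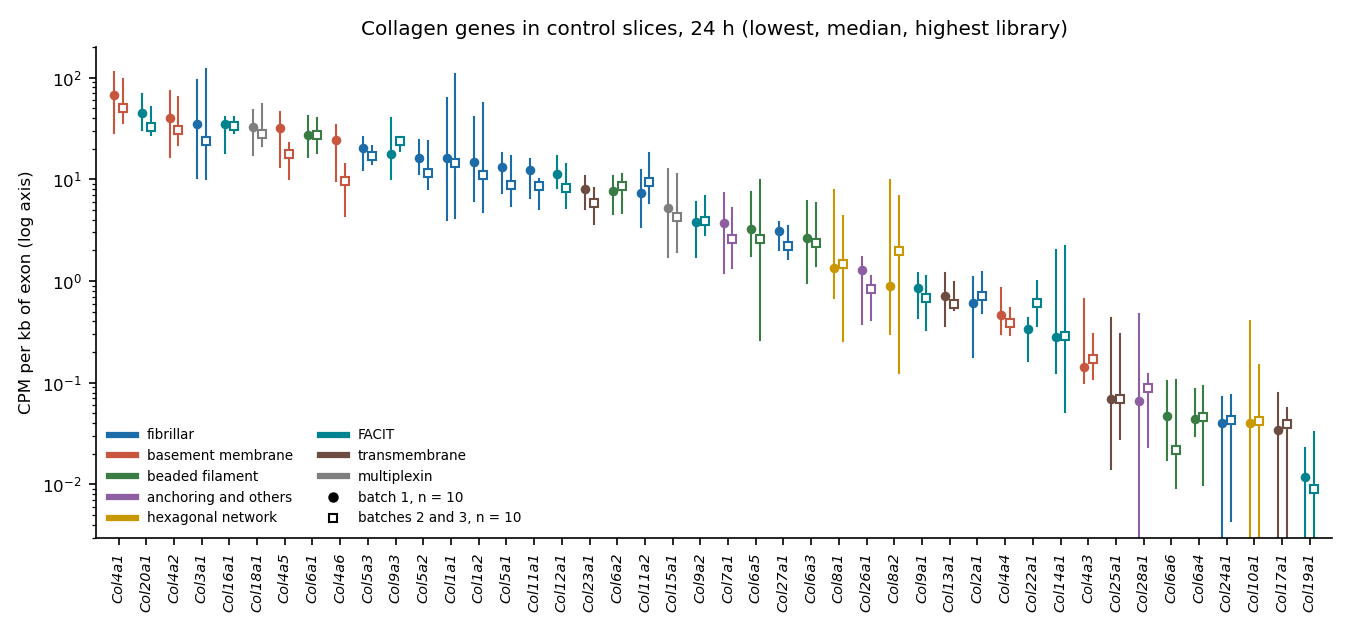
Level of each of the 44 collagen genes in untreated slices at 24 h, as CPM per kb of exon on a log axis, coloured by class. Points are medians and bars run from the lowest to the highest library, with batch 1 as filled circles (n = 10) and batches 2 and 3 as open squares (n = 10). Col4a1 stands highest in both sets, and the bars of Col1a1 and Col3a1 are far longer than those of Col16a1.

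Col4a1, a chain of the collagen found in every basement membrane, had the highest median in batch 1 at 67.8 CPM per kb, with libraries from 28.8 to 113. The FACIT gene Col20a1 followed with a median of 44.6 CPM per kb (30.4 to 68.9). Col4a2, the partner of Col4a1, stood at 40.5 CPM per kb. These 3 ranges overlapped, but within every one of these libraries Col4a1 exceeded Col4a2, at a ratio per kb of 1.52 to 1.78. The place of Col20a1 was not compared within libraries. Col3a1 and Col16a1 came next with nearly equal medians of 35.3 and 35.2 CPM per kb, though Col3a1 ranged from 10.2 to 93.9 and Col16a1 only from 18 to 40.8. The multiplexin Col18a1, whose fragment is endostatin, and Col4a5 followed with 32.9 and 32.1 CPM per kb. Col6a1, a chain of the beaded filaments, had 27, Col5a3 had 20.3, Col9a3 had 17.8 and Col5a2 had 16.4 CPM per kb.

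Type I collagen, the main fibril of dura and skin, was in the middle of the order on this length scale. Col1a1 had a median of 16.3 CPM per kb in batch 1 (3.99 to 63.6) and Col1a2 one of 14.6. Col5a1, Col11a1 and Col12a1 lay close below at 13.2, 12.2 and 11.3 CPM per kb. Col23a1, Col6a2, Col11a2 and Col15a1 had 8.01, 7.75, 7.30 and 5.17 CPM per kb. Col27a1 had 3.08 and Col6a3 had 2.66, and the hexagonal network genes Col8a1 and Col8a2 had 1.33 and 0.903. Col25a1 was nearly silent at 0.0697 CPM per kb and Col19a1 was lowest at 0.0118. In batches 2 and 3, Col4a1 again had the highest median at 49.8 CPM per kb (35.4 to 97.1), before Col16a1 at 33.1, Col20a1 at 32.7 and Col4a2 at 30.3.

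The collagens differed widely in how steady they were between untreated cultures. In batch 1 the highest control library exceeded the lowest by 1.86 times for Col27a1, 2.04 times for Col12a1 and 2.27 times for Col16a1. For Col4a1 the ratio was 3.92, for Col3a1 9.18 and for Col1a1 15.9, with Col1a1 between 26.2 and 417 CPM. Among genes counted in every control library, the widest spreads were those of Col8a2 (32.4 times) and Col25a1 (30.7 times). Control replicate 13 of batch 1, which had the highest choroid plexus marker sum of 3521 CPM, also had the highest Col9a3 (153 CPM), Col8a1 (61.4 CPM) and Col8a2 (44.2 CPM) of its group. In batches 2 and 3 the 24 h controls spread 26.1 times for Col1a1, 12.2 times for Col3a1, 2.74 times for Col4a1 and 1.51 times for Col5a3.

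The ratio between chains that share a trimer was steady for some pairs and loose for others. Col4a1 and Col4a2 form one heterotrimer and lie head to head in the genome. Per kb, the ratio of Col4a1 to Col4a2 stayed from 1.47 to 1.78 over the labelled batch 1 libraries, around a median of 1.61. In round 1 it lay between 1.57 and 1.79, and in round 2 between 1.497 and 1.76. The ratio of Col1a1 to Col1a2 was looser, from 0.463 to 1.94 in batch 1 with a median of 1.15, and its median was 1.45 in round 1 and 1.60 in round 2. Col4a5 and Col4a6, also neighbours in the genome, had median ratios of 1.37, 1.59 and 1.70 in the same 3 sets. The ratio of Col6a1 to Col6a2 had medians of 3.96, 3.19 and 2.87. That of Col9a3 to Col9a2 had medians of 5.43, 6.54 and 5.19, with libraries from 3.70 to 10.2 in batch 1. The size of each ratio depends on the joined exon lengths. These were 6563 bases for Col1a1 and 12426 for Col1a2, and 4380 for Col6a1 and 8326 for Col6a2. The strand used in counting is not given, and Col4a1 and Col4a2 overlap in the annotation, as do Col9a3 with Tcfl5, Col10a1 with Nt5dc1 and Col3a1, Col15a1 and Col20a1 with unnamed genes, so reads at those overlaps could be shared.

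Across the 10 batch 1 controls, the genes outside the family whose log2 CPM followed Col1a2 most closely were Tgfbi (r = 0.988), Fibin, Foxd1, Nid1 and Foxf2. Col1a1 (r = 0.994) and Col3a1 (r = 0.989) followed it more closely still. For Col4a1 they were Adgra2 (r = 0.992), Pear1, Ggt5, Pdgfrb and Lamc3, after its partner Col4a2 (r = 0.998). Over the 19 controls of batches 2 and 3, with group, batch and round means removed, they were Lum, Lox, Loxl2, Emilin1 and Nid1 for Col1a2 and Loxl2, Emilin1, Cped1, Nid1 and Lamb1 for Col4a1. Nid1 stood in 3 of these 4 lists. These correlations describe libraries that differ in tissue make-up and depth and carry no test.

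Heme-albumin at the lower doses gave no collagen call. At 12.5 µM, 0 of 42 members passed an adjusted p under 0.05 (edgeR quasi-likelihood test, Benjamini-Hochberg over all genes tested), beside 0.045% of all genes. None had an unadjusted p under 0.05 and DESeq2 also called 0. At 50 µM, 0 of 42 passed beside 0.463% of all genes, with 2 members at an unadjusted p under 0.05 and 0 called by DESeq2. The median log2 difference of the members was −0.02 at 12.5 µM and −0.01 at 50 µM, against −0.01 over all genes at each dose.

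At 200 µM heme-albumin 1 of 42 members was lower (2.38%), beside 13.6% of all tested genes called and 6.6% lower. The gene was Col12a1, a FACIT collagen that binds type I fibrils. Its levels were 126, 172 and 258 CPM (lowest, median, highest) in controls and 119, 131 and 189 CPM at 200 µM. The groups overlapped, with a log2 difference of −0.35 ± 0.12 (SE, n = 10 per group; edgeR adjusted p = 0.0311). The call was lost without the filter on low counts. After a correction for GC content that is explained with hemeHpx, 4 members passed, Col12a1 with Col20a1, Col9a2 and Col9a3. They stood beside 2457 of 15554 genes.

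The other collagens mostly had negative differences at 200 µM that did not pass. The median log2 difference was −0.28 over the 42 members, of which 7 were positive, and −0.01 over all genes. Col1a1 had 26.2, 107.2 and 417 CPM in controls and 11.3, 54.7 and 233 CPM at 200 µM (log2 −0.94, 95% interval −2.14 to 0.26). Col1a2 had a log2 difference of −0.95 with an interval of −1.82 to −0.09 and an adjusted p of 0.145 by edgeR. Col3a1, the fibrillar collagen of soft and vascular tissue, differed by −0.57 (−1.47 to 0.34), Col8a1 by −1.12 (edgeR adjusted p = 0.129) and Col4a1 by −0.35 (−0.80 to 0.10). These ranges overlapped with the controls. Col4a2 (−0.31), Col18a1 (−0.05) and Col6a1 (0.21) did not pass either. The fibroblast marker sum had a median of 382 CPM at 200 µM against 473 CPM in controls and the mural cell sum 446 against 562 CPM, with overlapping ranges. Of the listed markers, 0 rose and 2 of 14 fell for fibroblasts, and 3 of 10 fell for mural cells, beside 6.6% of all genes lower. Their part in the collagen differences was not tested.

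At 400 µM heme-albumin 7 of 42 members passed (16.7%), beside 29% of all genes, so the share lay below that of all genes. Of these, 6 were lower beside 14.3% of all genes and Col5a1 was higher beside 14.7%. By class, 3 of 8 tested FACIT genes fell, together with 1 of 6 basement membrane and 1 of 6 beaded filament genes, while the fibrillar genes gave 1 rise and 1 fall. The median log2 difference was −0.16 over the members and −0.01 over all genes.

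Among the genes that fell, Col20a1 had 157, 229 and 354 CPM in controls and 97.5, 142 and 170 CPM at 400 µM. Only its upper libraries overlapped the control range, and the log2 difference was −0.78 ± 0.15 (SE, n = 10 per group; edgeR adjusted p = 5.24e-05). Col12a1 went from 172 CPM (126 to 258) to 122 CPM (96.1 to 159), a log2 difference of −0.51 ± 0.12 (edgeR adjusted p = 0.000506). Its medians over the rising doses were 150, 151, 131 and 122 CPM, each below the control median.

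**Figure D2:**
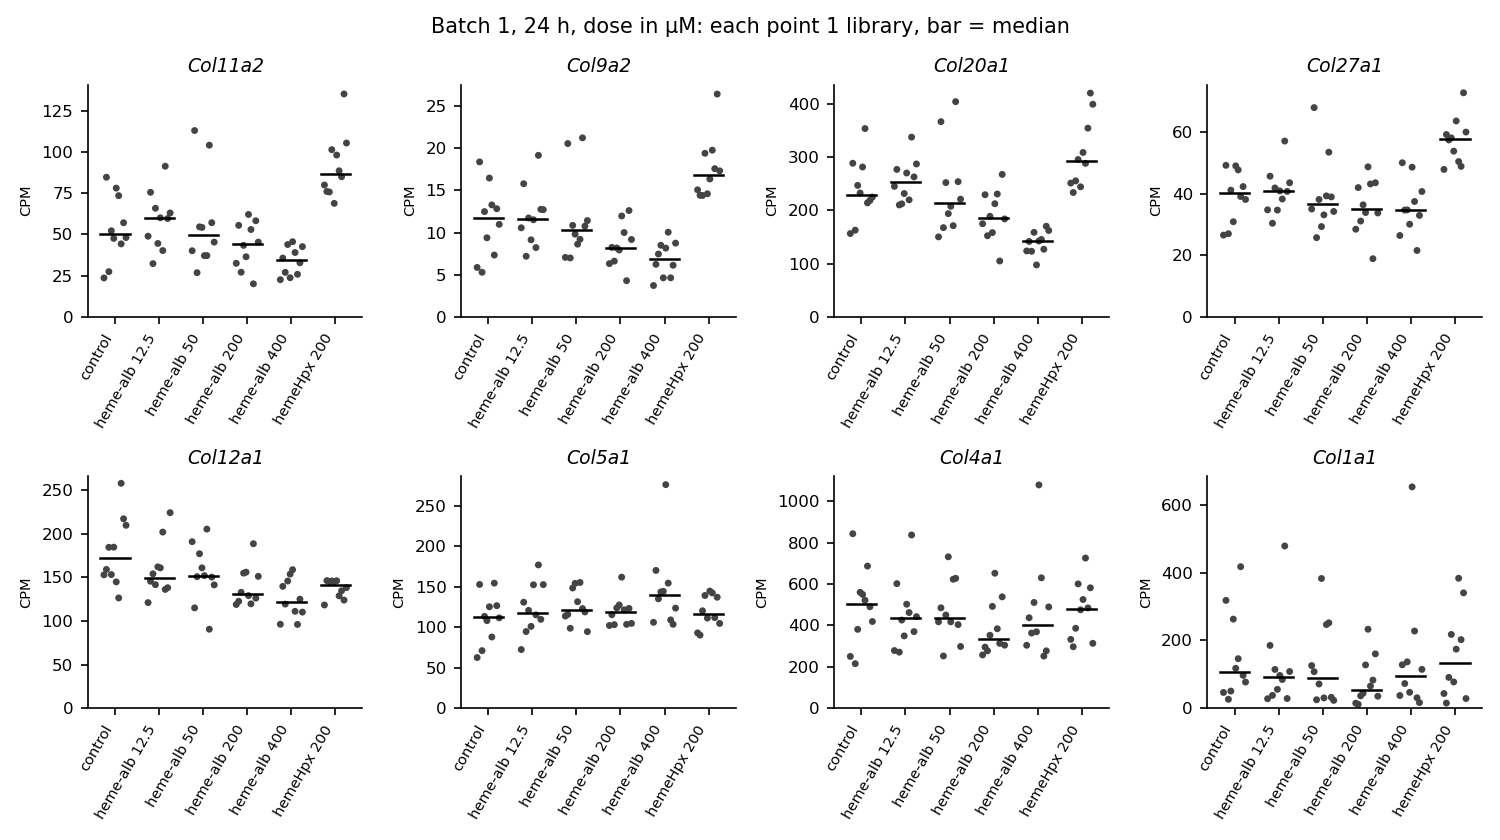
CPM of 8 collagen genes in every batch 1 library (points, n = 10 per group), with the median of each group as a bar, for control, heme-albumin at 4 doses and hemeHpx. Col20a1 and Col12a1 sit lowest at 400 µM heme-albumin, and Col11a2, Col9a2 and Col27a1 sit highest under hemeHpx, while Col4a1 and Col1a1 overlap across all groups.

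Col9a2, a chain of the FACIT trimer that coats type II fibrils, went from 11.7 CPM (5.27 to 18.4) to 6.83 CPM (3.7 to 10), a log2 difference of −0.72 ± 0.21 (edgeR adjusted p = 0.00601). Col11a2, a minor chain of cartilage fibrils, went from 50.2 CPM (23.6 to 84.8) to 34.2 CPM (22.5 to 45.6), a log2 difference of −0.67 ± 0.22 (edgeR adjusted p = 0.016). Both ranges overlapped with those of the controls. Col4a4, a chain of the basement membrane network known from kidney, had medians of 4.89 and 3.12 CPM and Col6a5 had 30.4 and 24.5 CPM, with log2 differences of −0.73 ± 0.16 and −0.72 ± 0.28 (edgeR adjusted p = 0.0005 and 0.0416). The Col6a5 call was lost without the filter on low counts.

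Col5a1 was the single collagen that rose at 400 µM, and the call was lost with the GC correction. It nucleates type I fibrils and sets their width. Controls had 62.5, 112 and 154 CPM and the 400 µM group 104, 139 and 276 CPM, a log2 difference of 0.40 ± 0.15 (SE, n = 10 per group; edgeR adjusted p = 0.0357). The highest library, at 276 CPM, lay far above the rest of its group. Type I collagen Col1a1 (−0.09, −1.27 to 1.10) and Col4a1 of the basement membrane (−0.06, −0.51 to 0.39) had intervals on both sides of 0. Median marker sums at 400 µM and in controls were 446 and 473 CPM for fibroblasts, 462 and 562 CPM for mural cells, 7384 and 10620 CPM for astrocytes and 303 and 20.2 CPM for choroid plexus, with overlapping ranges. Their part in the collagen differences was not tested.

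Genes that fold, process, bind and degrade collagen made a second list. Of 60 tested genes on this list of 63, 0 rose and 7 fell at 200 µM, beside 13.6% of all genes called and 6.6% lower. They included Lair1 (log2 −1.003 ± 0.23, edgeR adjusted p = 0.00142), an inhibitory collagen receptor of immune cells, and P4ha3 (−0.50 ± 0.09, edgeR adjusted p = 3.86e-05), a subunit of the prolyl hydroxylase that stabilises the helix. At 400 µM 4 rose and 19 fell, beside 29% of all genes called, 14.7% higher and 14.3% lower. Serpinh1, the collagen chaperone HSP47, rose by 0.36 ± 0.09 (edgeR adjusted p = 0.00121) and Timp1, an inhibitor of matrix metalloproteinases, by 0.53. P4ha3 fell by 0.95 ± 0.09 on the log2 scale (edgeR adjusted p = 8.49e-13), Mmp13 by 1.05 and the fibril-binding proteoglycans Aspn and Fmod by 1.48 and 1.18. Of 7 microglial and macrophage markers, 6 fell at 200 µM and 4 at 400 µM, beside 6.6% and 14.3% of all genes lower.

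HemeHpx at 200 µM gave 5 called members of 42 (11.9%), beside 8.2% of all genes. Col11a2, Col9a2, Col27a1 and Col16a1 were higher, beside 3.77% of all genes, and Col12a1 was lower, beside 4.44%. Col11a2 had 23.6, 50.2 and 84.8 CPM in controls and 68.9, 86.9 and 135 CPM under hemeHpx, a log2 difference of 0.77 ± 0.22 (SE, n = 10 per group; edgeR adjusted p = 0.0358). Col27a1, a fibrillar collagen of developing cartilage, had 26.6, 40.2 and 49.3 CPM in controls and 47.9, 57.9 and 72.9 CPM, a log2 difference of 0.55 ± 0.14 (edgeR adjusted p = 0.0304). The 2 groups barely met in Col27a1 and overlapped in Col11a2.

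Col9a2 rose from 11.7 CPM (5.27 to 18.4) to 16.8 CPM (14.4 to 26.4), a log2 difference of 0.63 ± 0.20 (edgeR adjusted p = 0.0459). Col16a1 rose from 237 CPM (122 to 276) to 299 CPM (228 to 363), a log2 difference of 0.47 ± 0.15 (edgeR adjusted p = 0.0436). Col12a1 fell from 172 to 142 CPM (118 to 146 under hemeHpx), a log2 difference of −0.38 ± 0.12 (edgeR adjusted p = 0.0401). Col9a3 had a log2 difference of 0.47 and did not pass (edgeR adjusted p = 0.0661). Without the filter on low counts 2 members passed, Col11a2 and Col27a1, beside 277 of 22304 genes. With the code in the library name as a replicate block, 11 passed, Col9a3 and Col20a1 among them, beside 3659 of 15955 genes. No label says what that code marks.

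Genes rich in G and C rose together in this comparison. Against control, the median log2 difference was 0.16 over the 3579 genes with at least 55% GC and −0.13 over the 4055 genes under 45% GC. All 4 collagens that rose have GC-rich transcripts (Col11a2 62.9%, Col9a2 62.7%, Col16a1 61.4%, Col27a1 59.4%), and Col12a1, which fell, has 48.3%. Other GC-rich members did not pass, among them Col2a1 (62.2%), Col5a3 (61.6%), Col7a1 (61.6%) and Col18a1 (60.8%). When the median deviation of each library was removed within classes of like GC content and transcript length, both medians were −0.01 and 0 of the 42 members passed, beside 109 of all 15554 genes. With so few calls over all genes, 0 members says little about the collagens. The part of GC content in the collagen differences was not tested. None of the 9 marker lists had a called gene in this comparison, beside 8.2% of all genes. Col1a1 (0.01, −1.17 to 1.2) and Col4a1 (−0.06, −0.51 to 0.39) had intervals on both sides of 0.

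At the matched dose of 200 µM the heme carriers themselves differed. Relative to heme-albumin, 10 of 42 members were higher under hemeHpx (23.8%) and 0 were lower, beside 13% of all genes higher and 25.9% called in either direction. The 10 comprised 4 of 8 tested FACIT genes, 3 of 11 fibrillar genes, 2 of 3 tested transmembrane genes and 1 beaded filament gene. No basement membrane, hexagonal network or multiplexin gene passed. The median log2 difference was 0.49 over the members, of which 37 of 42 were positive, and 0.01 over all genes.

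Col11a2 had 20, 44.3 and 62.1 CPM under heme-albumin and 68.9, 86.9 and 135 CPM under hemeHpx. Every hemeHpx library lay above every heme-albumin library, and the log2 difference was 1.08 ± 0.22 (SE, n = 10 per group; edgeR adjusted p = 0.000326). Col9a2 had 4.27, 8.2 and 12.6 CPM against 14.4, 16.8 and 26.4 CPM, again without overlap, a log2 difference of 1.04 ± 0.21 (edgeR adjusted p = 0.000275). Among all tested genes, 0.585% had hemeHpx ranges wholly above those of heme-albumin.

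Col9a3, the partner chain of Col9a2, had 41.7, 62.5 and 80.7 CPM against 80.2, 94.1 and 130 CPM, a log2 difference of 0.76 ± 0.17 (edgeR adjusted p = 0.0016). Its ranges touched at about 80 CPM. Col20a1 had 105, 187 and 268 CPM against 234, 292 and 421 CPM, a log2 difference of 0.68 ± 0.15 (edgeR adjusted p = 0.0009). Col27a1 had 18.9, 35.2 and 48.8 CPM against 47.9, 57.9 and 72.9 CPM, a log2 difference of 0.67 ± 0.14 (edgeR adjusted p = 0.0008). In both genes the groups met only at their edges.

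The transmembrane gene Col25a1, whose product was first found in amyloid plaques, differed most in fold but at a trace level. It had 0.214, 0.639 and 2.06 CPM under heme-albumin and 0.771, 1.98 and 4.25 CPM under hemeHpx, a log2 difference of 1.31 ± 0.50 (edgeR adjusted p = 0.0442). The ranges overlapped, and the call was lost without the filter on low counts. The 4 other members that passed were Col13a1 (0.56), Col16a1 (0.48), Col2a1 (0.77) and Col6a4 (0.80), with edgeR adjusted p-values from 0.0143 to 0.0189. Col2a1, the chief collagen of cartilage, had medians of 5.18 and 7.92 CPM and Col6a4 medians of only 0.358 and 0.555 CPM.

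The same 10 members passed with the same GC correction. HemeHpx against heme-albumin had a smaller GC trend, with median log2 differences of 0.11 over GC-rich and −0.07 over GC-poor genes. Type I collagen did not pass: Col1a1 differed by 0.95 (−0.24 to 2.15; edgeR adjusted p = 0.232) and Col1a2 by 0.74 (−0.12 to 1.60). Nor did Col8a1, at 1.05 (edgeR adjusted p = 0.105), or Col4a1, at 0.29 (−0.16 to 0.74). The intervals were narrower for Col12a1 (−0.03, −0.25 to 0.20) and Col5a1 (0.01, −0.28 to 0.30). Over all genes, 13% were higher and 25.9% were called in either direction. Of the marker lists, 6 of 7 microglial, 3 of 6 astrocyte, 3 of 6 oligodendrocyte, 2 of 9 endothelial and 1 each of the fibroblast, mural and choroid plexus genes were higher, and 2 of 4 oligodendrocyte precursor genes were lower. Their part in the collagen differences was not tested.

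On the collagen pathway list 8 of 60 tested genes were higher and 5 lower under hemeHpx than under heme-albumin, beside 25.9% of all genes called and 13% higher. Lair1 (0.80), Prelp (0.63) and P4ha3 (0.56) were higher under hemeHpx. Serpinh1 (−0.23) and the collagen receptor Ddr2 (−0.39) were lower. Against control, hemeHpx raised none of the 60 and lowered Ddr2, Itgb1 and Plod2 by 0.32, 0.27 and 0.25 on the log2 scale. Over all genes, 3.77% were higher and 4.44% lower in that comparison. The comparisons with control share the same 10 control libraries.

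**Figure D3:**
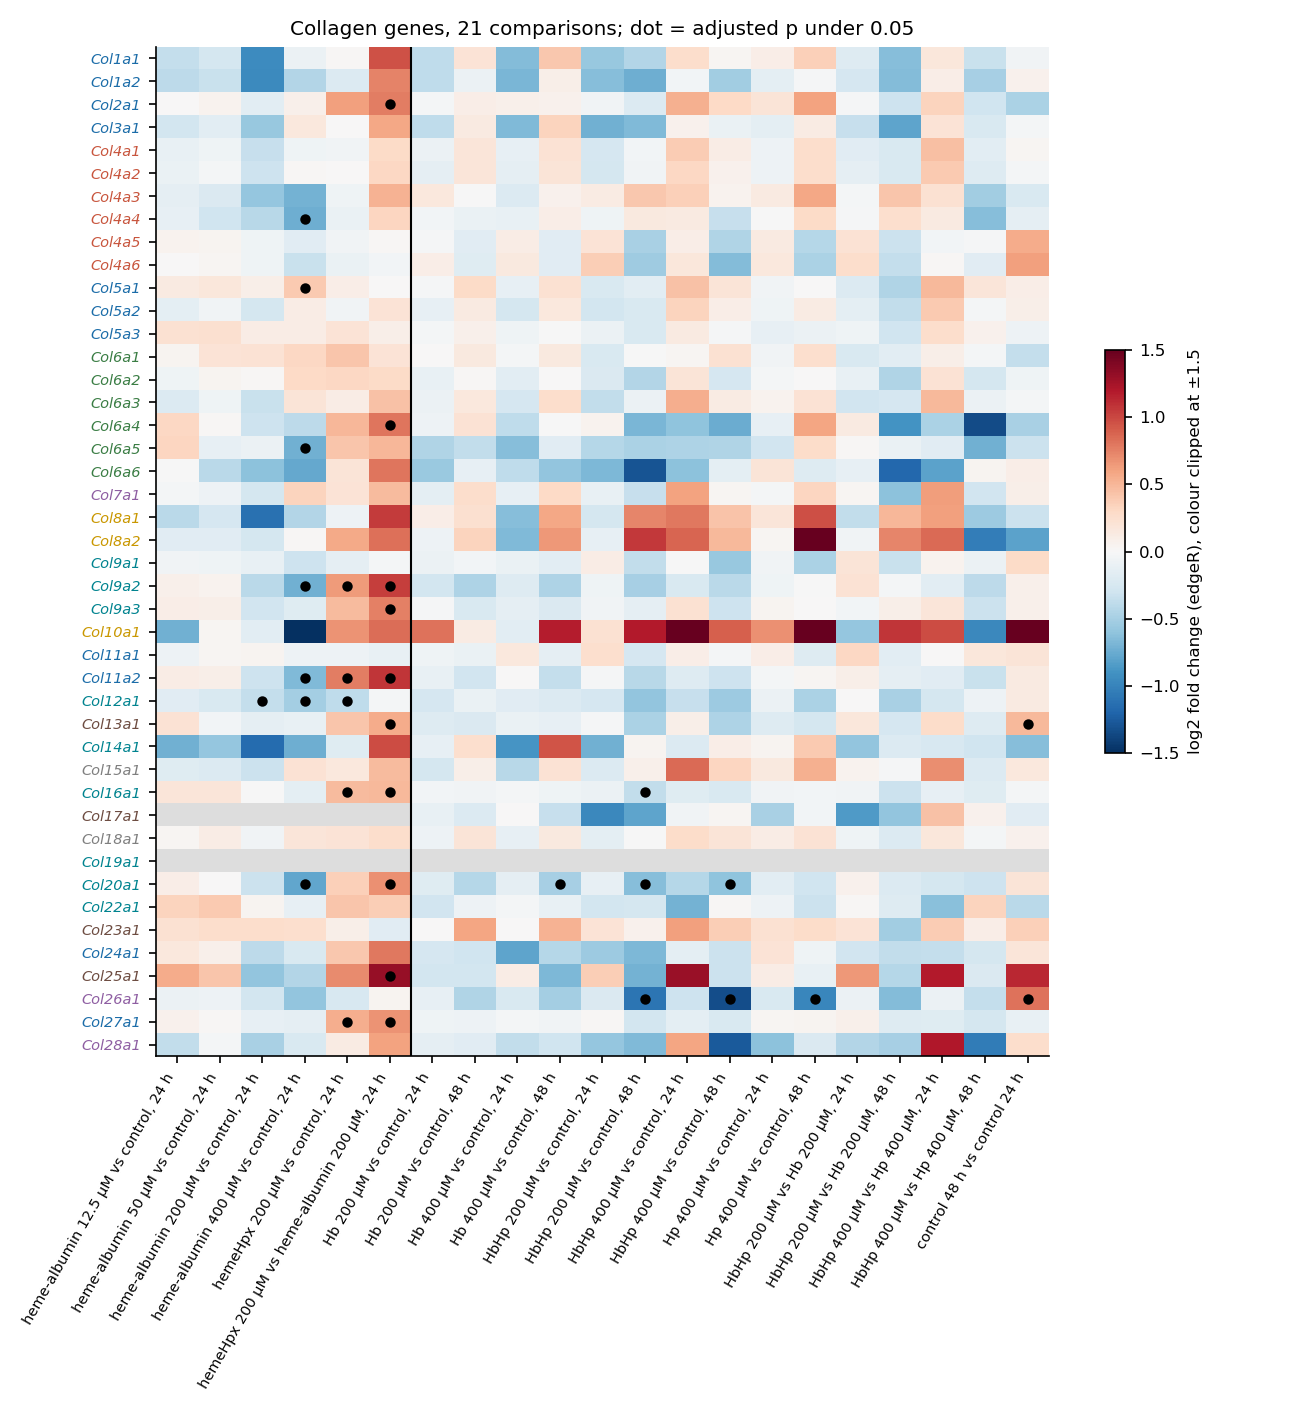
Log2 fold change of the 44 collagen genes (rows, by class) in 21 comparisons (columns), with colours limited to −1.5 and 1.5. Dots mark an adjusted p under 0.05, grey marks genes not tested, and a line separates batch 1 from batches 2 and 3. Calls concentrate in heme-albumin 400 µM and in hemeHpx against heme-albumin, and the Hb, HbHp and Hp columns hold few.

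Cell-free hemoglobin left nearly all collagens uncalled. At 24 h, 0 of 43 members passed at 200 µM beside 0.0971% of all genes, and 0 at 400 µM beside 0.522%, with 0 and 1 at an unadjusted p under 0.05. The member medians were −0.11 and −0.13 (log2). At 48 h, 0 of 43 passed at 200 µM beside 0.31% of all genes, with 3 at an unadjusted p under 0.05. DESeq2 also called 0 members in these 3 comparisons. At 400 µM for 48 h, Col20a1 alone was lower, beside 0.601% of all genes called and 0.115% lower.

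Col20a1 had 158, 211 and 235 CPM in the 48 h controls of round 1 and 265 and 279 CPM in the pair of round 2. Hb at 400 µM for 48 h had 93.5, 154 and 216 CPM over both rounds, overlapping the round 1 controls. With batch and round in the fit the log2 difference was −0.50 ± 0.13 (SE, n = 10 and 9; edgeR adjusted p = 0.0343). The call was lost within round 1, within round 2 and without the round term.

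HbHp likewise gave no collagen call at 24 h. At 200 µM 0 of 43 passed beside 1.93% of all genes, with 0 at an unadjusted p under 0.05. At 400 µM 0 passed beside 5.15%, with 5 at an unadjusted p under 0.05, and DESeq2 called 0 in both. Single libraries decided this count at 400 µM: without control 24 h replicate 11, 1 member passed, Col25a1, beside 745 of 16473 genes. Haptoglobin alone at 24 h also gave 0 beside 0.704% of all genes, with 0 at an unadjusted p under 0.05 and 0 by DESeq2.

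At 48 h 3 of 43 members were lower with HbHp at 200 µM (6.98%), beside 11.9% of all genes called and 4.85% lower, and 2 at 400 µM (4.65%), beside 11.9% and 4.56%. With haptoglobin alone 1 was lower (2.33%), beside 10.8% called and 5.88% lower. The collagen shares were thus near or below the shares of all genes. These comparisons share the 9 control libraries at 48 h.

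Col26a1, a collagen first described in testis and ovary, was lower in all 3. The round 1 controls had 5.66, 13.1 and 20.1 CPM and the pair of round 2 controls 5.22 and 5.73 CPM. HbHp 200 µM had 3.24, 4.97 and 6.84 CPM, and the 5 libraries of HbHp 400 µM had 3.73, 4.38, 4.46, 4.07 and 4.36 CPM. Hp had 5.44, 6.02 and 8.28 CPM in round 1 and 2.3, 5.63 and 8.94 CPM in round 2. The treated libraries thus lay below most round 1 controls but close to the 2 round 2 controls.

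**Figure D4:**
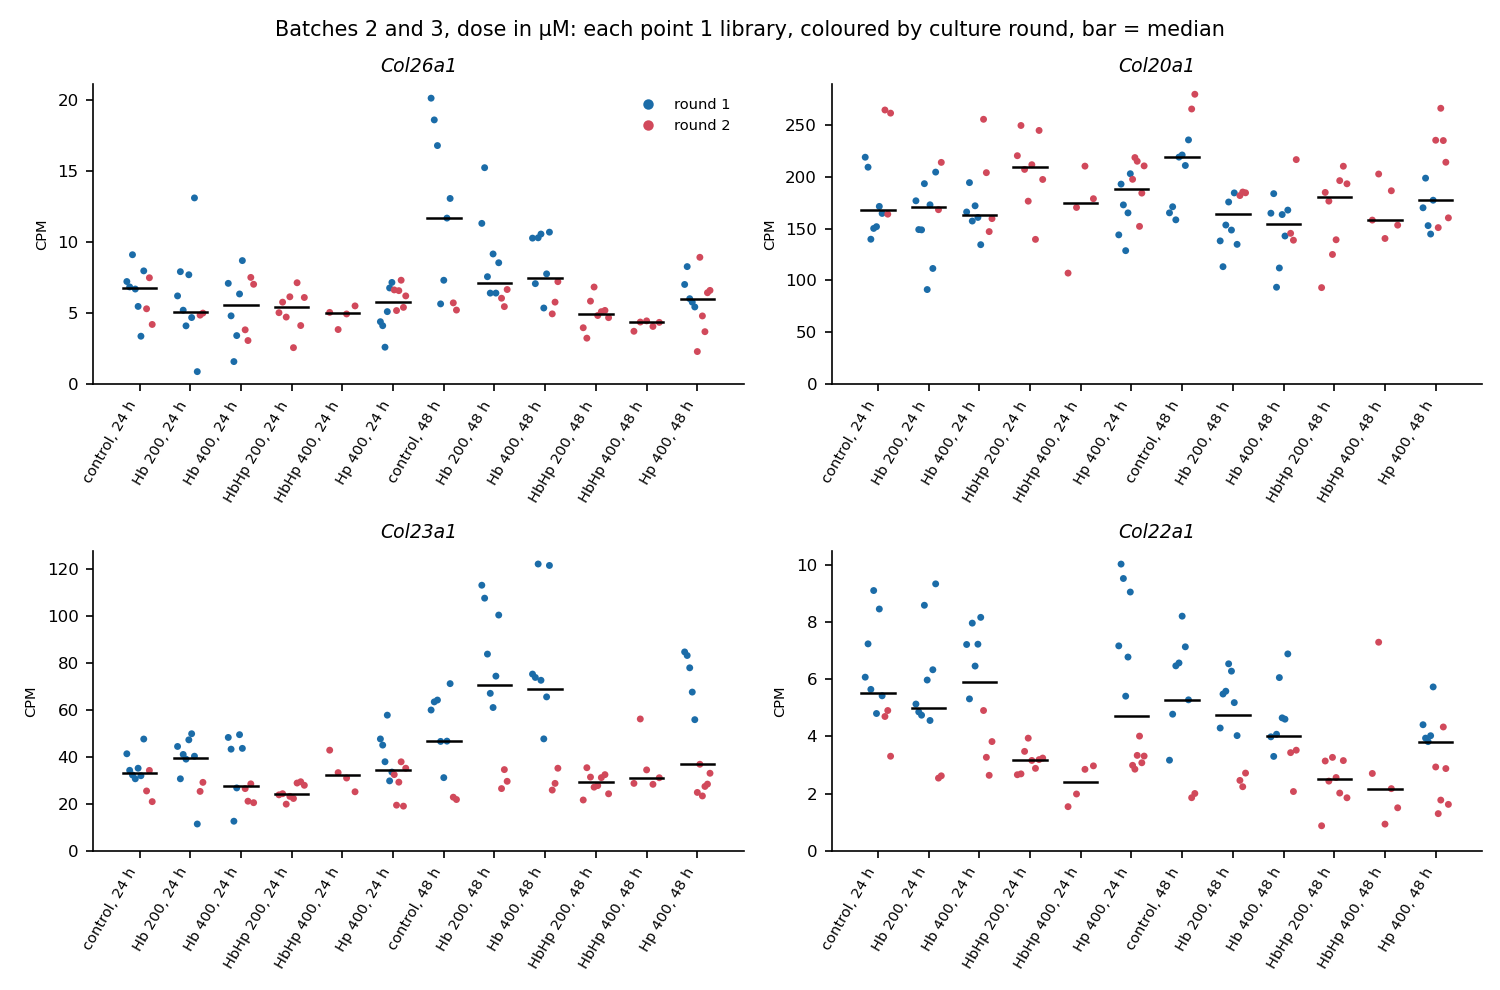
CPM of Col26a1, Col20a1, Col23a1 and Col22a1 in every labelled library of batches 2 and 3, by treatment group and coloured by culture round, with the group median as a bar. Round 1 and round 2 separate in Col23a1 at 48 h in the groups that hold both, and the 5 libraries of HbHp 400 µM at 48 h sit at 3.73 to 4.46 CPM in Col26a1.

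With batch and round in the fit, the log2 difference of Col26a1 was −1.09 ± 0.31 for HbHp 200 µM (n = 8 and 9; edgeR adjusted p = 0.0104). It was −1.34 ± 0.35 for HbHp 400 µM (n = 5 and 9; edgeR adjusted p = 0.00474) and −0.97 ± 0.27 for Hp (n = 11 and 9; edgeR adjusted p = 0.0125). Because all HbHp cultures were of round 2, the HbHp differences rest partly on the round term. All HbHp and Hp libraries were of batch 3, so all 3 differences rest partly on the batch term. Within round 2 alone, with 2 controls, Col26a1 passed in none of the 3: 1 member passed for HbHp 200 µM, Col20a1, and 0 for HbHp 400 µM and for Hp. The genes called were 646, 766 and 5 of 16429. With so few calls for Hp, its 0 says little. Within round 1 alone Hp gave 4 members, Col26a1 among them, beside 2717 of 16529 genes. Col26a1 was also lost at HbHp 200 µM with a term for round by time, added after seeing the data. Without the round term, 10, 5 and 2 members passed, Col26a1 in each, beside 4066, 3356 and 1779 of all 16473 genes.

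Col20a1 was lower with HbHp at both doses. HbHp 200 µM had 93.1, 181 and 210 CPM, and the libraries of HbHp 400 µM had 158, 203, 140, 186 and 153 CPM. All 13 lay below the pair of round 2 controls, at 265 and 279 CPM, and within or below the range of the round 1 controls. The log2 differences were −0.63 ± 0.16 (edgeR adjusted p = 0.00336) and −0.60 ± 0.18 (edgeR adjusted p = 0.0132). The call at 400 µM was lost without the round term and within round 2 alone.

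Col16a1 was the last of the 3 genes at HbHp 200 µM. Controls had 200, 213 and 248 CPM and the treated group 65.4, 198 and 218 CPM, a log2 difference of −0.37 ± 0.12 (edgeR adjusted p = 0.0273). Replicate 1, at 65.4 CPM, carried this call. Without it the other libraries had 189 to 218 CPM and Col16a1 no longer passed. The 2 members then called stood beside 1199 of 16475 genes. The Col16a1 call was also lost with the GC correction and within round 2 alone. At HbHp 400 µM Col16a1 had 188 to 221 CPM. Col12a1 had a log2 difference of −0.59 at HbHp 200 µM with replicate 1 included and did not pass (edgeR adjusted p = 0.0844). It passed when control 48 h replicate 7 or replicate 9 was left out, which gave 4 calls, beside 1893 of 16461 and 1686 of 16474 genes.

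Type I and basement membrane collagens did not pass with HbHp at 48 h. At 200 µM Col1a1 differed by −0.44 (−1.57 to 0.70), Col4a1 by −0.04 (−0.58 to 0.50) and Col8a2 by 1.07 (−0.40 to 2.54). With Hp, Col8a2 differed by 1.52 ± 0.69 (edgeR adjusted p = 0.141). The choroid plexus marker sum had a median of 561 CPM at HbHp 200 µM and 426 CPM with Hp, against 15.3 CPM in the round 1 and 310 CPM in the round 2 controls at 48 h, with all HbHp libraries of round 2, and its part in the Col8a2 differences was not tested. For mural cells, 2 of 10 markers fell at each HbHp dose, beside 4.85% and 4.56% of all genes lower. With Hp 2 rose and 2 fell, beside 10.8% of all genes called and 5.88% lower.

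Direct contrasts of the ligands found no collagen difference past the threshold. HbHp against Hb at 200 µM gave 0 members at 24 h beside 0.607% of all genes and 0 at 48 h beside 4.98%, with 1 and 6 at an unadjusted p under 0.05. At 48 h the median was −0.30 (log2), and the lowest edgeR adjusted p among the members was 0.0901. Both values include HbHp 200 µM 48 h replicate 1. Without that library 0 members and 332 of all genes passed, against 821 genes with it. HbHp against Hp at 400 µM gave 0 beside 0.619% at 24 h and 0 beside 1.44% at 48 h, with 3 and 6 at an unadjusted p under 0.05. Without HbHp 400 µM 24 h replicate 4 the 24 h count was 1, Col28a1, beside 298 of 16635 genes. DESeq2 called 0 in all 4. The change of the Hb effect from 24 to 48 h at 200 µM gave 0 members beside 0.0% of all genes, and that of the HbHp effect 0 beside 0.0121%, with 1 and 6 at an unadjusted p under 0.05 and 0 by DESeq2 in each.

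On the pathway list, 2 genes rose and 6 fell at HbHp 200 µM for 48 h, 2 rose and 5 fell at HbHp 400 µM, and 2 rose and 3 fell with Hp, each of 60 tested, beside 11.9%, 11.9% and 10.8% of all genes. Over all genes, 4.85%, 4.56% and 5.88% were lower in these 3 comparisons. Mmp8, a neutrophil collagenase, rose in each, by 0.76, 1.15 and 0.56, and so did Mia2, which helps load procollagen for export. P4ha3 fell by 0.41 and 0.56 on the log2 scale at the lower and higher HbHp dose. Mmp14, the membrane-bound metalloproteinase, fell by 0.58 with HbHp 200 µM and by 0.51 with Hp.

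Few collagens differed between untreated cultures at 24 and 48 h. Of 43 members 2 were higher (4.65%), beside 4.5% of all genes called and 1.66% higher. With a term for the library code in the fit, 0 members passed, beside 150 of 16896 genes. Col13a1, a transmembrane collagen of the neuromuscular junction, had 2.36, 2.72 and 4.52 CPM at 24 h and 2.62, 3.85 and 7 CPM at 48 h, a log2 difference of 0.49 (edgeR adjusted p = 0.0394). Its call was lost without the filter on low counts, without the round term and within round 2 alone. Col26a1 in round 1 had 3.38, 6.85 and 9.12 CPM at 24 h and 5.66, 13.1 and 20.1 CPM at 48 h. In round 2 it had 4.21, 5.31 and 7.5 CPM at 24 h against 5.22 and 5.73 CPM. For Col26a1, control 48 h vs control 24 h, the pooled log2 difference was 0.81 (edgeR adjusted p = 0.0301), whereas within round 2 it was −0.073 (edgeR adjusted p = 0.937), and the difference between the rounds was not tested.

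More collagens differed between the culture rounds than between any ligand and its control. Between rounds, with group and batch in the fit, 28 of 43 members passed (65.1%), 18 higher and 10 lower in round 2, beside 68% of all genes, 36.1% higher and 31.9% lower. The share of collagens was thus close to that of all genes.

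**Figure D5:**
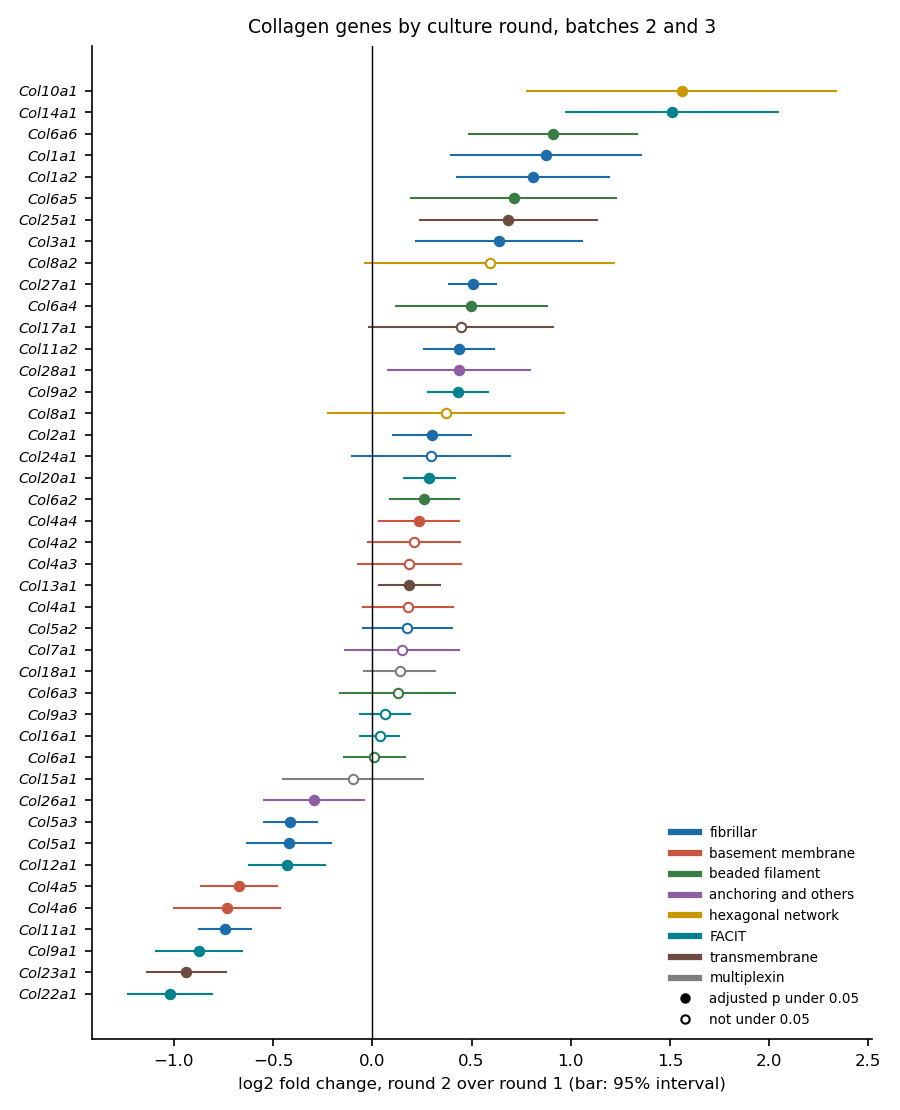
Log2 fold change of each of 43 tested collagen genes in round 2 over round 1, adjusted for group and batch, with 95% intervals. Filled points have an adjusted p under 0.05. Col10a1 and Col14a1 stand highest at 1.56 and 1.51, and Col22a1 and Col23a1 lowest at −1.02 and −0.94, while the interval of Col4a1 crosses 0.

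Of 11 fibrillar genes, 6 were higher and 3 lower in round 2. Among those that were higher, Col1a1 differed by 0.87 ± 0.24 (SE; edgeR adjusted p = 0.00111), Col1a2 by 0.81 ± 0.20 (edgeR adjusted p = 0.00018) and Col3a1 by 0.64 ± 0.21 (edgeR adjusted p = 0.00646). The round 1 and round 2 medians of Col1a1 were 81.9 and 123 CPM in the 24 h controls, 127 and 214 CPM in the 48 h controls and 133 and 341 CPM with Hb 200 µM at 48 h. Col14a1, which decorates type I fibrils, rose by 1.51 ± 0.27, from a median of 1.65 CPM (0.484 to 2.59) in the 48 h controls of round 1 to 4.09 and 6.05 CPM in the pair of round 2. Col10a1, the collagen of hypertrophic cartilage, rose by 1.56 ± 0.40 and Col6a6 by 0.91 ± 0.22. Col27a1 rose by 0.51 ± 0.06 (edgeR adjusted p = 3.97e-12). Its 24 h controls had 21.4 to 31.9 CPM in round 1 (n = 7) and 37.9 to 45.7 CPM in round 2 (n = 3).

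Another set of collagens was lower in round 2. Col22a1, a FACIT of tissue junctions, fell by 1.02 ± 0.11 on the log2 scale (edgeR adjusted p = 3.05e-14), Col23a1 by 0.94 ± 0.10 and Col9a1 by 0.87 ± 0.11. Col11a1 fell by 0.74 ± 0.07, Col4a6 by 0.73 ± 0.14 and Col4a5 by 0.67 ± 0.10. Col12a1, Col5a1 and Col5a3 fell by 0.43, 0.42 and 0.41. The 48 h controls comprised 7 libraries of round 1 and only 2 of round 2. In them Col11a1 had 103 to 169 CPM in round 1 and 61.3 to 65.3 CPM in round 2. Col4a5 had 105 to 283 CPM and 71.1 to 85.7 CPM.

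Col23a1, a transmembrane collagen, gave the cleanest separation. At 48 h the controls had 31.2 to 71.3 CPM in round 1 and 21.8 to 22.8 CPM in round 2. With Hb 200 µM the ranges were 61.1 to 113 and 26.5 to 34.6 CPM. With Hb 400 µM they were 47.7 to 122 and 25.9 to 35.2 CPM, and with Hp 55.9 to 84.8 and 23.4 to 36.9 CPM. The rounds did not overlap in any of these 4 groups, a pattern that 1.29% of all tested genes showed in the same direction.

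The basement membrane pair was not called between rounds: Col4a1 differed by 0.18 (−0.05 to 0.41; edgeR adjusted p = 0.165) and Col4a2 by 0.21, and neither passed. Col16a1 (0.04) and Col6a1 (0.01) did not pass either. Over all genes, 36.1% were higher and 31.9% lower in round 2. Of the marker lists, 9 of 14 fibroblast genes were higher and 1 lower in round 2, 7 of 10 mural and 7 of 9 endothelial genes were higher and 1 of each lower, and all 6 oligodendrocyte and 6 of 7 microglial genes were higher. The fibroblast marker sum had medians of 411 CPM in round 1 and 454 CPM in round 2. The choroid plexus sum had medians of 15.8 and 272 CPM and the oligodendrocyte precursor sum 1110 and 926 CPM. Their part in the collagen differences was not tested. On the pathway list 30 of 60 tested genes were higher and 18 lower, beside 36.1% and 31.9% of all genes, with the collagenase Mmp13 at 1.21 and Adamts14, which trims procollagen, at −2.72 (log2).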

How the data were processed

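The submitters' processing notes name GRCm39 and featureCounts for the bulk RNA-seq reads (aligner, versions and counting strand not given in the sources used here), and the deposited files hold the authors' raw counts per gene. No column of the authors' own comparisons was used. The collagens and all gene lists were chosen with earlier results of these data known. Names, exon lengths and transcripts came from GENCODE M21 (GRCm38), so no coordinates are given. Genes passed edgeR's filterByExpr (smallest count 10, smallest total 15), which left 15554 genes in batch 1 and 16473 in batches 2 and 3. Counts were scaled by TMM and tested with edgeR's quasi-likelihood test (edgeR 4.0.16, limma 3.58.1, R 4.3.3), separately in each set, by group in batch 1 and by group, batch and round in batches 2 and 3. P-values were two-sided, adjusted by Benjamini-Hochberg over all genes tested, and called under 0.05. CPM used TMM-scaled library sizes, and likeness used Pearson's r of log2(CPM + 0.5). The scripts were tested on simulated data.

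Named genes were 23 listed members plus the 5 most raised and 5 most lowered called members of each comparison. Others shown were chosen after their values were seen. Alternatives were DESeq2 1.42.0, RLE scaling, no filter, a library-code block, no round term and each round alone. Replicates of HbHp 400 µM and the round 2 controls were also left out singly, in the HbHp comparisons only. Corrections for GC content and length (10 by 5 bins) and for round by time were added after seeing the data. So were fits without HbHp 200 µM 48 h replicate 1, Hb 200 µM 24 h replicate 10 or heme-albumin 12.5 µM replicate 8. These libraries stood apart from their groups in several collagens. No other batch 1 library was left out. Library codes were not taken to pair samples, since no label says that they do and not every code's deviations correlated above 0.1. Intervals cover the spread between libraries, and the lowest total count was 11038484. The 21 libraries with contradictory labels were given as values only.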

Additional observations from a re-analysis of the deposited data

Results flagged for a closer look

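Groups of 4 to 10 libraries were searched for a collagen whose highest or lowest library stood far from the rest. Of 608 such checks, 56 were positive, in 31 genes. Chance alone flags about 1 in 20 groups. Values are CPM.

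HbHp 200 µM 48 h replicate 1 was lowest of its group in 17 collagens. Its basement membrane chains were Col4a1 at 160, Col4a2 at 84.1, Col4a4 at 1.29, Col4a5 at 24.0 and Col4a6 at 11.97 CPM. Its fibrillar chains were Col5a1 at 22.8, Col5a2 at 57.5, Col5a3 at 28.2, Col11a1 at 23.4, Col11a2 at 23.3 and Col27a1 at 11.1 CPM. The remaining 6 were Col9a2 at 6.31, Col12a1 at 28.6, Col15a1 at 10.6, Col16a1 at 65.4, Col18a1 at 94.3 and Col22a1 at 0.872 CPM. Its total count was 30215855, and its mural and oligodendrocyte precursor marker sums, 367 and 606 CPM, were the lowest of the group.

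Heme-albumin 12.5 µM replicate 8 was lowest in Col4a5 (89.96 CPM), Col4a6 (78.7 CPM) and Col11a1 (86.5 CPM) and highest in Col6a1 (219 CPM), Col6a2 (127 CPM), Col6a6 (1.37 CPM) and Col10a1 (0.939 CPM). Hb 200 µM 24 h replicate 10 was lowest in Col4a4 (0.886 CPM), Col4a6 (16.99 CPM), Col23a1 (11.4 CPM) and Col26a1 (0.886 CPM). Heme-albumin 200 µM replicate 8 was lowest in Col2a1 (1.51 CPM), Col6a5 (8.81 CPM) and Col8a2 (0.886 CPM).

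Replicate 6 was highest in Col5a1 both at 200 µM (162 CPM) and at 400 µM heme-albumin (276 CPM), and in Col10a1 (1.89 and 0.21 CPM). Replicate 9 of heme-albumin 200 µM was lowest in Col4a6 (95.9 CPM), hemeHpx replicate 9 was highest in Col9a2 (26.4 CPM) and batch 1 control replicate 13 in Col9a3 (153 CPM).

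At 24 h in the later batches, Hb 400 µM replicate 3 was lowest in Col4a4 (1.66 CPM) and Col13a1 (1.59 CPM), replicate 6 highest in Col11a2 (138 CPM) and replicate 8 highest in Col10a1 (1.23 CPM). HbHp 200 µM replicate 6 was lowest in Col2a1 (4.70 CPM), and HbHp 400 µM replicate 4 in Col6a2 (58.7 CPM) and Col14a1 (0.778 CPM). Control replicate 3 was lowest in Col6a5 (2.45 CPM) and control replicate 8 highest in Col6a6 (0.969 CPM).

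At 48 h, Hb 400 µM replicate 7 was lowest in Col5a1 (41.9 CPM), replicate 8 highest in Col6a4 (0.798 CPM), replicate 10 highest in Col27a1 (46.4 CPM), and replicate 3 lowest in Col6a5 (0.578 CPM) and highest in Col12a1 (284 CPM). Hb 200 µM replicate 9 was lowest in Col6a5 (0.422 CPM) and replicate 8 highest in Col25a1 (9.02 CPM). HbHp 400 µM replicate 2 was highest in Col12a1 (132 CPM) and Col23a1 (56.2 CPM).

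The round difference of Col23a1 was unequal between times: a round-by-time term was −0.90 on the log2 scale (edgeR adjusted p = 0.00375), so the deficit of round 2 was larger at 48 h than at 24 h. In the 21 libraries with contradictory labels Col2a1 had a median of 19.2 CPM, above the highest control of batches 2 and 3 at 11.2 CPM.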

How the results depend on the processing

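All 24 counts of called collagens stayed within 1.5 times under RLE scaling, and 23 under DESeq2. It called 2 with Hp at 48 h (adding Col2a1), beside 2035 of 16473 genes. Without the filter on low counts, heme-albumin 200 µM gave 0, hemeHpx against control 2 and control 48 h against 24 h 1. The genes called were 1765 and 277 of 22304, then 578 of 23017. Without the round term, HbHp 200 µM at 48 h gave 10, HbHp against Hb at 48 h 7, HbHp 400 µM 1 at 24 h (Col22a1) and 5 at 48 h, Hp at 48 h 2, control 48 h against 24 h 1 and Hb 400 µM at 48 h 0. In that order the genes called were 4066, 2327, 1254, 3356, 1779, 375 and 55 of 16473. Within round 2 alone HbHp 200 µM at 48 h gave 1, and HbHp 400 µM, Hp and Hb 400 µM at 48 h and control 48 h against 24 h each gave 0, with fewer libraries. The genes called were 646, 766, 5, 36 and 144 of 16429. Within round 1 alone Hp at 48 h gave 4 and Hb 400 µM at 48 h 0, beside 2717 and 79 of 16529 genes. Within round 2 the log2 difference of Col26a1, control 48 h vs control 24 h, reversed to −0.073. With the GC and length correction, chosen after seeing the data, heme-albumin 200 µM gave 4, hemeHpx against control 0, Hp at 48 h 2 and control 48 h against 24 h 4. The genes called were 2457 and 109 of 15554, then 1688 and 938 of 16473. A round-by-time term, also added later, gave 5 for control 48 h against 24 h, beside 1263 of 16473 genes. Deviations of libraries with the same code correlated at a mean r of 0.144 in batch 1 (−0.0149 between codes, 5 of 9 codes over 0.1) and 0.0826 in the later batches (−0.0206, 4 of 18), which leaves pairing unsettled. With the code as a replicate block, hemeHpx against control gave 11, beside 3659 of 15955 genes, and heme-albumin 400 µM lost Col6a5. HbHp against Hb at 48 h gave 1 (Col16a1), beside 1122 of 16896 genes. Control 48 h against 24 h gave 0, beside 150 of 16896 genes. The other counts stayed within 1.5 times. Over single libraries left out, HbHp 400 µM at 24 h and HbHp against Hp at 24 h each gave 0 to 1, and HbHp 200 µM at 48 h gave 2 to 4. The cause was not tested. Total counts from 11038484 limit the precision for genes under 1 CPM, such as Col25a1, Col10a1 and Col6a4.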

Other observations

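The 21 libraries whose labels contradict themselves stand in no comparison. In them Col2a1, the chief cartilage collagen, ranged from 7.71 to 29.4 CPM. Of the 21, 19 lay above all 19 controls of batches 2 and 3, and 11 lay above the highest labelled library at 17.6 CPM. Col4a4 ranged from 1.35 to 4.07 CPM with a median of 2.02 CPM, and 20 of the 21 lay below the lowest control at 3.12 CPM. Labelled treated libraries also lay this low, at 0.886 CPM in Hb 200 µM 24 h replicate 10 and 1.29 CPM in HbHp 200 µM 48 h replicate 1. Col7a1, the collagen of anchoring fibrils, had a median of 49 CPM, with 8 of the 21 above the highest control. Only 2 lay above the highest labelled library, at 77.3 CPM. These genes were chosen after their values were seen, and no test was made.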
